A study of Saccharomyces cerevisiae with 75 samples.

Results

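ACT1, ARP2, COF1, PFY1, YSC84, TUB1, TUB3 and GLC7 are 8 genes of the budding yeast Saccharomyces cerevisiae that build the actin cytoskeleton and the microtubules or encode a protein phosphatase. They were taken by gene symbol from the array's probe annotation, which gave 25 of the 1457 probes with a gene and 8 of the 982 genes on the array. GLC7 had 4 printed probes and each of the other genes had 3. Total RNA of 2 strains was labelled with Cy5 and Cy3 and hybridised together on each of 75 spotted arrays designed to follow splicing. Of these, 73 arrays compared deletion strains, in 37 extract pairs, and 36 pairs were hybridised in both dye orientations. Every value is a log2 ratio of the strain named first over the other, averaged over the 6 spots of a probe and over both dye orientations, so a value above 0 means more signal from the first strain.

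The npl3 deletion (Dnpl3 in the labels) was set against wild type after 30 min at 16 °C in 1 pair, at 30 °C in 7 pairs, and after 15, 30 and 45 min at 37 °C in 2, 6 and 1 pairs. The gbp2 deletion and the hrb1 deletion each had 1 pair at 30 °C and 2 pairs after 30 min at 37 °C over wild type, and the gbp2 hrb1 double deletion had 2 pairs at each of these temperatures. The npl3 upf1 double deletion was hybridised with wild type and with the npl3 deletion in single pairs at 30 °C and at 37 °C (15 min), and with the upf1 deletion in 1 pair at 30 °C. The upf1 deletion had a single pair with the npl3 deletion at both temperatures and 1 with wild type at 37 °C for 15 min. The upf1 deletion and wild type at 30 °C, and the double deletion and the upf1 deletion at 37 °C, were thus not hybridised together, and their ratios are fitted through other strains. At 37 °C for 30 min, upf1 was compared with wild type and a strain labelled Dupf1+Dnpl3 with the npl3 deletion, also in single pairs. The remaining 2 arrays compared the splicing mutant prp2-1 with the mutants prp5-1 and prp8-1 after 30 min at 37 °C, so no wild type was on those arrays. The labels give no strain background and do not say that pairs came from separate cultures.

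Actin monomers assemble into filaments that in yeast form cortical patches, at sites of endocytosis, and cables. Profilin and cofilin control assembly and turnover of these filaments, and the Arp2/3 complex starts branched ones. Alpha-tubulin pairs with beta-tubulin in microtubules, which form the mitotic spindle. All of these genes carry an intron in yeast, which is a minority trait in that genome, and their transcripts must be spliced before translation. Npl3, Gbp2 and Hrb1 are RNA-binding proteins related to the SR proteins, a family best known for its part in splicing in animals. Upf1, a helicase encoded by NAM7, is needed for nonsense-mediated decay, the pathway that destroys transcripts with an early stop codon, among them unspliced ones that reach the cytoplasm.

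Probes of a gene were kept apart and are numbered 1 to 3 and, for GLC7, 1 to 4 in the order of printing, which was found from spot positions. For 230 genes the array holds 3 probes in this fixed order, and all 8 genes are among them. What a probe matches in its transcript (an exon, the intron or a splice junction) is not given in the sources used here. A difference between probes of a gene therefore shows only that they changed unequally. RNA of whole cultures was measured, so a change in the share of cells and a change in RNA per cell cannot be told apart. TUB1 and TUB3 encode closely similar proteins, and whether a probe of one gene also takes up RNA of the other was not tested.

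The deleted genes were low where their deletion was labelled, with exceptions. NPL3 lay between -2.19 and -1.59 in the 6 npl3 pairs after 30 min at 37 °C. At 30 °C it lay between -2.19 and -1.68 in 6 of the npl3 pairs, whereas the pair numbered replicate 3 gave 1.47, against its label. Replicate numbers follow the order of deposit and are only names. This pair lies in batch C, as do most 30 °C pairs with an upf1 strain. Over all probes that pair correlated with the other 6 at -0.66 to -0.45, while those 6 correlated among themselves at 0.41 to 0.71. Of the 25 probes of the 8 genes, 15 had the opposite sign in the pair numbered replicate 3 to the mean of the other 6. The npl3 results at 30 °C are therefore given with this pair as labelled, without it and with its sign turned, and calls of other 30 °C comparisons that change with it are named. NPL3 was less reduced in the single pair after 45 min at 37 °C (-0.63) and in replicate 1 after 15 min (-0.86). HRB1 was at -0.43 in the hrb1 pair at 30 °C, within the range of pairs without an hrb1 deletion (-1.08 to 0.91). GBP2 lay between -4.04 and -2.58 in the gbp2 and gbp2 hrb1 pairs. NAM7 lay between -4.24 and -2.23 in the pairs of upf1 strains over wild type. In the upf1 over npl3 pair at 30 °C, NAM7 was at -1.25 and NPL3 at only 0.75. The dye-flipped arrays of that pair correlated at -0.05, and the 30 °C fits for the upf1 strains draw on it. The arrays of a dye-flipped pair correlated below 0 over all probes in 10 of 36 pairs, among them all hrb1 pairs. The arrays of deletion strains were put in batches, called A to F here, by the leading number of their titles. The titles themselves do not name batches.

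In npl3 cells after 30 min at 37 °C, signal rose at ACT1 probe 2, PFY1 probe 1 and 3 of the 4 GLC7 probes, and fell at COF1 probe 2 and at all 3 TUB1 probes. This is 9 of 25 probes (36%) in 5 of the 8 genes at an adjusted p under 0.05 (limma, Benjamini-Hochberg adjustment over 1536 probes), against 26.4% of all probes. Of the 25, 5 rose and 4 fell, beside 13.2% of all probes in each direction. The median over the 25 probes was 0.01, beside -0.02 over all probes, and 12 of the 25 had an unadjusted p under 0.05. For counts at an unadjusted p, here and below, the share of all probes is not given. Shares printed near them are of calls at the adjusted p. No probe of ARP2, YSC84 or TUB3 passed the test. As a share, the number called among these genes was thus not far from that of the array.

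**Figure D1:**
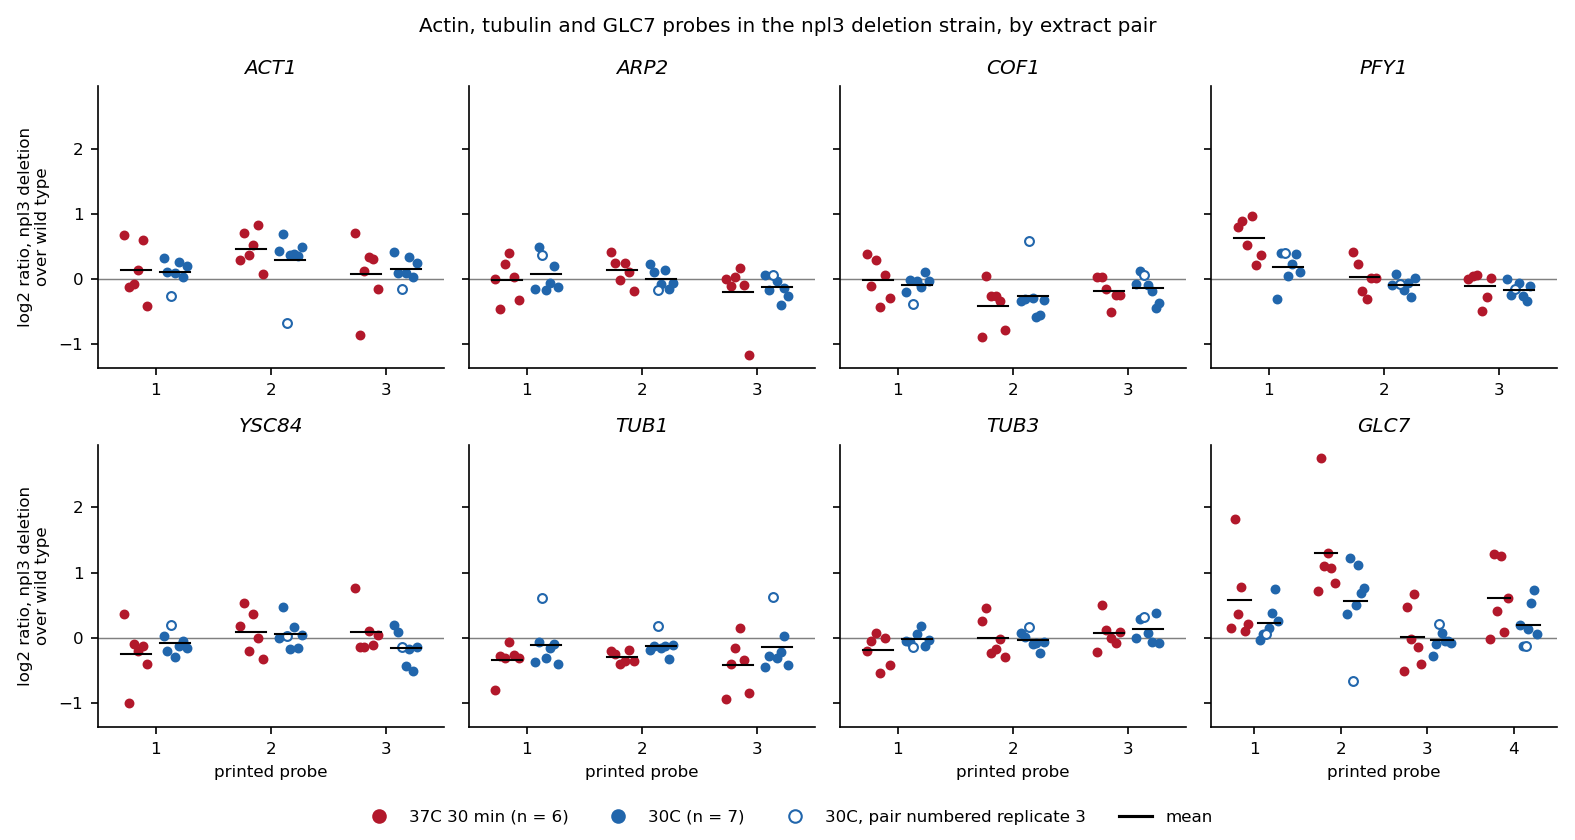
Log2 ratio of npl3 over wild type in each extract pair for every printed probe of the 8 genes, with the 6 pairs after 30 min at 37 °C in one colour, the 7 pairs at 30 °C in another, and the 30 °C pair numbered replicate 3 marked. Horizontal bars are group means. GLC7 probe 2 is above 0 in all 6 pairs at 37 °C, and the pair numbered replicate 3 lies on the other side of 0 from most 30 °C pairs at probe 2 of ACT1, COF1 and GLC7.

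GLC7 (locus YER133W) encodes the catalytic subunit of type 1 protein phosphatase, which takes part in glycogen metabolism, glucose repression and mitosis. Its probe 2 had the largest ratio among the 25, with 0.72, 1.09 and 2.76 as the lowest, median and highest of the 6 npl3 over wild type pairs after 30 min at 37 °C. All 6 pairs were above 0, and the highest, replicate 2 in batch B, stood apart from the other 5, which reached 1.31. The fitted ratio was 1.301 ± 0.20 (SE, adjusted p = 9.14e-05, limma), and 1.01 without replicate 2, still called. Probe 3 of this gene averaged 0.01 ± 0.47 (SD, n = 6) and was above 0 in 2 of 6 pairs. Probe 1 had 0.10, 0.29 and 1.83 as lowest, median and highest, a fitted ratio of 0.57 ± 0.18 and an adjusted p of 0.0195. Probe 4 had -0.02, 0.52 and 1.29, a fitted ratio of 0.61 ± 0.17 and an adjusted p of 0.0116. Both of these calls were lost without replicate 2 (0.32 at probe 1 and 0.47 at probe 4) and without replicate 4 (0.53 and 0.48). The plot of ratios by pair shows this spread, with the batch B pair highest at probes 1, 2 and 4.

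PFY1 (YOR122C) encodes profilin, which binds actin monomers and promotes filament growth. Its probe 1 had 0.21, 0.66 and 0.97 as lowest, median and highest npl3 over wild type ratios, so all 6 pairs were above 0. The fitted ratio was 0.63 ± 0.11 (SE, adjusted p = 0.000331, limma). Probes 2 and 3 averaged 0.03 ± 0.26 and -0.11 ± 0.22 (SD, n = 6), with pairs on both sides of 0. ACT1 (YFL039C), the single actin gene of budding yeast, gave a similar split between its probes. Probe 2 had 0.08, 0.45 and 0.84 in the 6 pairs, none below 0, and a fitted ratio of 0.47 ± 0.12 (adjusted p = 0.00508). Probes 1 and 3 averaged 0.13 ± 0.43 and 0.08 ± 0.54 (SD, n = 6), and probe 3 ran down to -0.86 in batch B. The calls at ACT1 probe 2, PFY1 probe 1 and GLC7 probe 2 held in every alternative setting tried for this comparison.

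COF1 (YLL050C) encodes cofilin, which severs actin filaments. Its probe 2 had -0.88, -0.30 and 0.05 as lowest, median and highest, with 1 of 6 npl3 pairs above 0. The fit gave -0.41 ± 0.12 (SE, adjusted p = 0.0117, limma). The value depended on the dye, being 0.06 over the arrays with the npl3 strain in Cy3 alone, so the fall rests on the opposite orientation. The call was also lost without replicate 1 or 6. COF1 probes 1 and 3 gave -0.01 and -0.18 and were not called. Probe 3 depended on the dye the other way, at 0.27 with the npl3 strain in Cy5 and -0.71, a call, with it in Cy3.

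TUB1 (YML085C) is the major alpha-tubulin gene and TUB3 (YML124C) the minor one. At TUB1 probe 2 the lowest, median and highest ratios were -0.40, -0.30 and -0.18, all below 0, with a fitted ratio of -0.29 ± 0.07 (SE, adjusted p = 0.00359, limma). Probe 1 had -0.80, -0.29 and -0.06 and probe 3 -0.93, -0.37 and 0.15. Their fitted ratios were -0.34 ± 0.12 (adjusted p = 0.0334) and -0.42 ± 0.14 (adjusted p = 0.0243). TUB1 was the one gene of the 8 with every probe called. The call at probe 1 was lost without replicate 1, 2, 3 or 6, and that at probe 3 without replicate 1, 2 or 6, with the ratios nearest 0 (-0.24 and -0.32) without replicate 1. Both were lost with batch as a fixed block, and that at probe 1 also with batch as a random block. The call at probe 2 was lost with arrays of npl3 in Cy5 alone. With only the pairs of the groups compared, no TUB1 probe was called. The TUB3 probes gave -0.19 ± 0.24, 0.00 ± 0.30 and 0.07 ± 0.24 (mean and SD, n = 6), and none was called.

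ARP2 (YDL029W) encodes a subunit of the Arp2/3 complex and YSC84 (YHR016C) an SH3-domain protein of actin patches. The ARP2 probes averaged -0.02 ± 0.32, 0.14 ± 0.21 and -0.19 ± 0.49, and the YSC84 probes -0.24 ± 0.44, 0.10 ± 0.33 and 0.09 ± 0.35 (SD, n = 6). The spread among pairs exceeded each of these means. The nearest to a call was YSC84 probe 1, below 0 in 5 of 6 pairs, with an adjusted p of 0.0852.

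**Figure D2:**
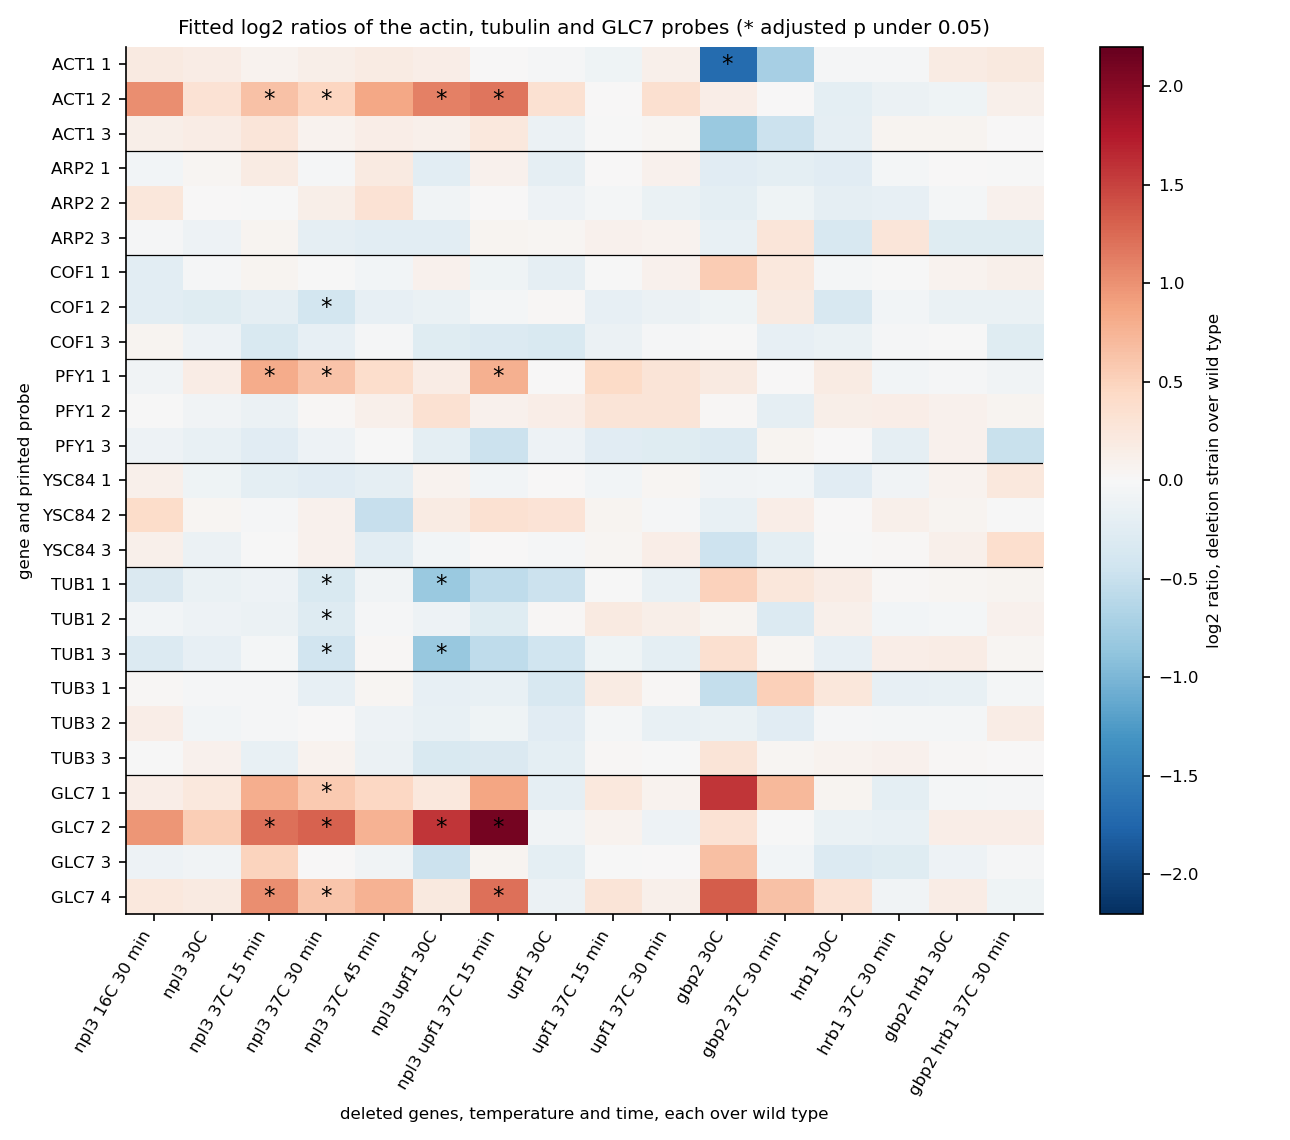
Fitted log2 ratio of each printed probe (rows) in each comparison with wild type (columns) as a colour scale, with calls at an adjusted p under 0.05 marked. GLC7 probe 2 and ACT1 probe 2 are called in both columns of the npl3 upf1 strain and in npl3 after 15 and 30 min at 37 °C, and the gbp2 column at 30 °C has 1 call, ACT1 probe 1.

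At 30 °C the same probes had smaller or similar ratios, and none of the 25 was called with all 7 npl3 pairs as labelled (background 4.3%, 3 probes at an unadjusted p under 0.05, limma). GLC7 probe 2 had -0.66, 0.69 and 1.23 as lowest, median and highest, and the lowest was the pair numbered replicate 3. Its fitted ratio was 0.54 ± 0.17 (SE, adjusted p = 0.0832). At ACT1 probe 2 the values were -0.68, 0.39 and 0.69, again with replicate 3 lowest, and the fit gave 0.32 ± 0.10 (adjusted p = 0.0871). COF1 probe 2 had -0.58, -0.32 and 0.58, with replicate 3 highest, and a fitted ratio of -0.27 ± 0.10 (adjusted p = 0.155). Outside replicate 3, all 6 pairs lay above 0 at ACT1 probe 2 and GLC7 probe 2 and below 0 at COF1 probe 2.

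Without that pair, 3 probes were called, beside 16% of all probes. They were probe 2 of GLC7 (0.72 ± 0.16, SE, adjusted p = 0.00167), of ACT1 (0.47 ± 0.08, adjusted p = 6.94e-05) and of COF1 (-0.40 ± 0.09, adjusted p = 0.00134). With its sign turned, 6 were called, beside 21% of all probes. These were the same 3, at 0.71, 0.50 and -0.43, and the 3 TUB1 probes at -0.30, -0.16 and -0.34. PFY1 differed, since its probe 1 had a fitted ratio of 0.16 ± 0.10 as labelled and was not called under either treatment of the pair.

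The difference of the npl3 ratios between 37 °C for 30 min and 30 °C was itself tested, and 0 of the 25 probes passed, as did 0% of all probes (limma). Of the 25, 2 had an unadjusted p under 0.05. GLC7 probe 2 had 1.301 at 37 °C and 0.54 at 30 °C, a difference of 0.76 (95% interval 0.23 to 1.3, adjusted p = 0.369). PFY1 probe 1 had 0.63 at 37 °C and 0.16 at 30 °C, a difference of 0.47 (0.16 to 0.78, adjusted p = 0.36). Batches A, B, D and F held npl3 pairs at both temperatures. Within them the difference was 0.36, 1.54, 0.40 and 0.22 at GLC7 probe 2 and 1.09, 0.49, 0.61 and 0.04 at PFY1 probe 1, above 0 in each.

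After 15 min at 37 °C, 4 of the 25 probes rose in npl3 cells (16%), against 3.45% of all probes that rose and 4.17% called in either direction. GLC7 probe 2 had 1.41 and 1.23 in the 2 direct pairs (fit 1.22 ± 0.28, SE, adjusted p = 0.0143, limma). ACT1 probe 2 had 0.66 and 0.70 (0.65 ± 0.17, adjusted p = 0.0283), so the direct pairs lay close together at both. PFY1 probe 1 had 1.48 and 0.42 (0.82 ± 0.16, adjusted p = 0.00685), and GLC7 probe 4 1.77 and 0.59 (1.02 ± 0.24, adjusted p = 0.0183). At these the first pair was far above the second, although both were above 0. Neither the fit with batch as a fixed block nor the fit without replicate 1 called any of the 25, whereas batch as a random block kept all 4, and without replicate 2 PFY1 probe 1 and GLC7 probe 4 remained. With batch as a fixed block 0% of all probes was called. The fit also draws on single pairs that join npl3, upf1, npl3 upf1 and wild type at this time. The ACT1 probe 2 call was lost when any one of these was left out, and held in 7 of 17 alternative settings. GLC7 probe 2 and PFY1 probe 1 were called in 13 of 17 each, and GLC7 probe 4 in 12.

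Single pairs covered 45 min at 37 °C and 30 min at 16 °C, and neither had a called probe among the 25, with 0% of all probes called in each. After 45 min GLC7 probe 2 had 1.56 with npl3 in Cy5 and -0.04 with npl3 in Cy3. ACT1 probe 2 had 1.05 and 0.64 on the same arrays. At 16 °C GLC7 probe 2 had 0.90 and 1.03, and ACT1 probe 2 0.87 and 1.20. Both probes were thus above 0 in every npl3 group by pair mean, while PFY1 probe 1 was at -0.08 at 16 °C. At an unadjusted p under 0.05 there were 2 probes after 45 min and 1 at 16 °C.

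None of the 25 probes passed the test in hrb1 or in gbp2 hrb1 cells, over wild type. The shares of all probes called for hrb1 were 0.0651% (30 °C) and 0.26% (30 min at 37 °C), and those for gbp2 hrb1 were 0.195% and 0.391%. At an unadjusted p under 0.05 there was 1 probe, in gbp2 hrb1 at 37 °C, and none in the other comparisons (limma). The difference of npl3 and gbp2 hrb1 ratios after 30 min at 37 °C was tested directly, and 0 of 25 probes passed, beside 1.37% of all probes. GLC7 probe 2 averaged 1.301 in npl3 and 0.15 in gbp2 hrb1 cells, and the difference was 1.15 ± 0.39 (SE, 95% interval 0.34 to 1.95, adjusted p = 0.143). That adjusted p was 0.0459 without the 30 °C pair numbered replicate 3 and 0.0384 with its sign turned.

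In gbp2 cells 1 of the 25 probes passed the test at 30 °C, a fall of ACT1 probe 1, beside 0.846% of all probes. Its ratio was -1.75 with gbp2 in Cy5 and -1.64 with gbp2 in Cy3, and the fit gave -1.69 ± 0.32 (SE, adjusted p = 0.00417, limma, 1 pair). In that pair NPL3 was at -0.65 and HRB1 at 0.87, although gbp2 is the only deletion labelled. After 30 min at 37 °C ACT1 probe 1 had -1.31 in batch B and -0.14 in batch D, so the low value was in the batch of the 30 °C pair. The 2 gbp2 pairs at 37 °C also differed in quality, since their dye-flipped arrays correlated at 0.50 (batch B) and -0.31 (batch D). ACT1 probe 3 ran the same way, with -0.82 at 30 °C, and -0.82 (batch B) and -0.11 (batch D) at 37 °C. No probe of the 25 was called in gbp2 at 37 °C, beside 0.195% of all probes called. Of the 25, 6 had an unadjusted p under 0.05 (limma), and the share of all probes at that threshold is not given. GLC7 probe 1 was split the same way in gbp2, with 1.57 in gbp2 at 30 °C (batch B), and 1.48 (batch B) and -0.04 (batch D) at 37 °C. The other batch B pairs gave 1.83 in npl3 at 37 °C, 0.05 in npl3 at 30 °C, and 0.06 (30 °C) and -0.37 (37 °C) in hrb1, so not every pair of that batch was high. ACT1 probe 2 and GLC7 probe 2, high in npl3 cells, had pair means from -0.09 to 0.14 and from -0.07 to 0.32 in the 3 gbp2 pairs. The ACT1 call was lost with batch as a fixed block and held with batch as a random block. Leaving out the batch D pair left a single gbp2 pair at 37 °C, so calls without it are not given.

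In the upf1 single deletion none of the 25 probes passed the test over wild type at 30 °C (fitted through the other strains), after 15 min or after 30 min at 37 °C, beside 1.5%, 1.11% and 0.716% of all probes. No probe of the 25 reached an unadjusted p under 0.05 in any of them. Fitted upf1 over wild type ratios of GLC7 probe 2 were -0.09, 0.07 and -0.10. Those of ACT1 probe 2 were 0.34, 0.00 and 0.35, and its 95% interval at 30 °C ran from -0.15 to 0.83, which holds the npl3 ratio of 0.32.

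In the npl3 upf1 double deletion at 30 °C, 4 of the 25 probes were called (16%), against 21.5% of all probes. ACT1 probe 2 and GLC7 probe 2 rose, and TUB1 probes 1 and 3 fell. In the direct pair with wild type, GLC7 probe 2 had 1.36 with the double deletion in Cy5 and 1.31 with it in Cy3, and ACT1 probe 2 1.33 and 1.25. TUB1 probe 1 had -0.999 and -1.09, and TUB1 probe 3 -0.92 and -1.27, while TUB1 probe 2 had 0.10 and -0.16. Both dye orientations thus gave the same direction at the 4 called probes. Fitted ratios were 1.57 ± 0.32 (SE, adjusted p = 0.000604) for GLC7 probe 2 and 1.10 ± 0.19 (adjusted p = 0.0001) for ACT1 probe 2. They were -0.81 ± 0.19 (adjusted p = 0.00245) and -0.83 ± 0.22 (adjusted p = 0.00784) for TUB1 probes 1 and 3 (limma). The ACT1 and GLC7 calls held in 21 of 21 alternative settings, and the TUB1 calls in 20 and 19, both being lost without the direct pair. With the sign of the 30 °C pair numbered replicate 3 turned, TUB3 probe 3 was called too (-0.39, adjusted p = 0.0399).

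Set against the npl3 single deletion at 30 °C, the double deletion differed at 5 of the 25 probes (20%), beside 14.9% of all probes. ACT1 probe 2 was higher by 0.79 ± 0.19 (SE, adjusted p = 0.00396, limma) and GLC7 probe 2 by 1.03 ± 0.31 (adjusted p = 0.0223). TUB1 probes 1 and 3 differed by -0.67 ± 0.18 (adjusted p = 0.0131) and -0.65 ± 0.22 (adjusted p = 0.0415), and TUB3 probe 3 by -0.44 ± 0.14 (adjusted p = 0.0299). In the direct pair the files hold npl3 over npl3 upf1, so the sign runs the other way, at -0.94 and -1.12 for GLC7 probe 2 and -0.68 and -0.85 for ACT1 probe 2 in the 2 dye orientations. The calls held with the 30 °C pair numbered replicate 3 left out or turned. GLC7 probe 2 and TUB1 probe 3 were called in 14 and 13 of 21 alternative settings, and both were lost when any one of the 4 single pairs that link the strains at 30 °C was left out. After 15 min at 37 °C ACT1 probe 2 and GLC7 probe 2 differed by 0.53 and 0.89 (adjusted p = 0.37 each), and none of the 25 was called (2 at an unadjusted p under 0.05), beside 2.67% of all probes. The adjusted p at ACT1 was 0.04 without the 30 °C pair numbered replicate 3. After 30 min, the strain labelled Dupf1+Dnpl3 over npl3 gave 0.80 at GLC7 probe 2 and -0.75 at TUB1 probe 1, with no call among the 25 (1 at an unadjusted p under 0.05), beside 1.17% of all probes.

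Over wild type, the double deletion after 15 min at 37 °C had 4 rises among the 25 probes (16%), beside 8.4% of all probes that rose and 9.51% called. GLC7 probe 2 had 2.16 and 1.81 in the dye orientations of the direct pair, the highest of the 25, and a fitted ratio of 2.10 ± 0.36 (SE, adjusted p = 0.000223, limma). ACT1 probe 2 had 0.97 and 1.38 (fit 1.18 ± 0.22, adjusted p = 0.000506). PFY1 probe 1 had 0.76 and 0.60 (0.79 ± 0.21, adjusted p = 0.0161) and GLC7 probe 4 0.82 and 1.18 (1.21 ± 0.32, adjusted p = 0.0153). These are the 4 probes called in npl3 at the same time, and the fits share pairs, so the likeness is not independent. The calls at PFY1 probe 1 and GLC7 probe 4 were lost with batch as a fixed block and without the pair with wild type or the pair with npl3, and held in 12 of 16 alternative settings each. ACT1 probe 2 lost its call without the pair with wild type, and GLC7 probe 2 held in 16 of 16. At 30 °C PFY1 probe 1 was at 0.17 in the double deletion.

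Against upf1, the double deletion was higher at GLC7 probe 2 by 1.66 ± 0.37 at 30 °C (SE, adjusted p = 0.0094, 1 of 25 probes, beside 3.12% of all). After 15 min at 37 °C it was higher by 2.03 ± 0.48 there (adjusted p = 0.0218) and by 1.18 ± 0.29 at ACT1 probe 2 (adjusted p = 0.0304), which made 2 of 25 beside 1.3% of all. These 37 °C values come through other strains, and the calls held in 8 (GLC7) and 6 (ACT1) of 14 alternative settings. Both were lost when any one of the 4 linking pairs was left out, and ACT1 also with batch as a fixed block. At 30 °C ACT1 probe 2 was called as well without the npl3 pair numbered replicate 3 (0.73, adjusted p = 0.0024) and with its sign turned (0.73, adjusted p = 0.00219). The GLC7 call there held in 17 of 21 settings. The direct 30 °C pair gave 1.80 and 1.99 at GLC7 probe 2 in the 2 dye orientations.

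**Figure D3:**
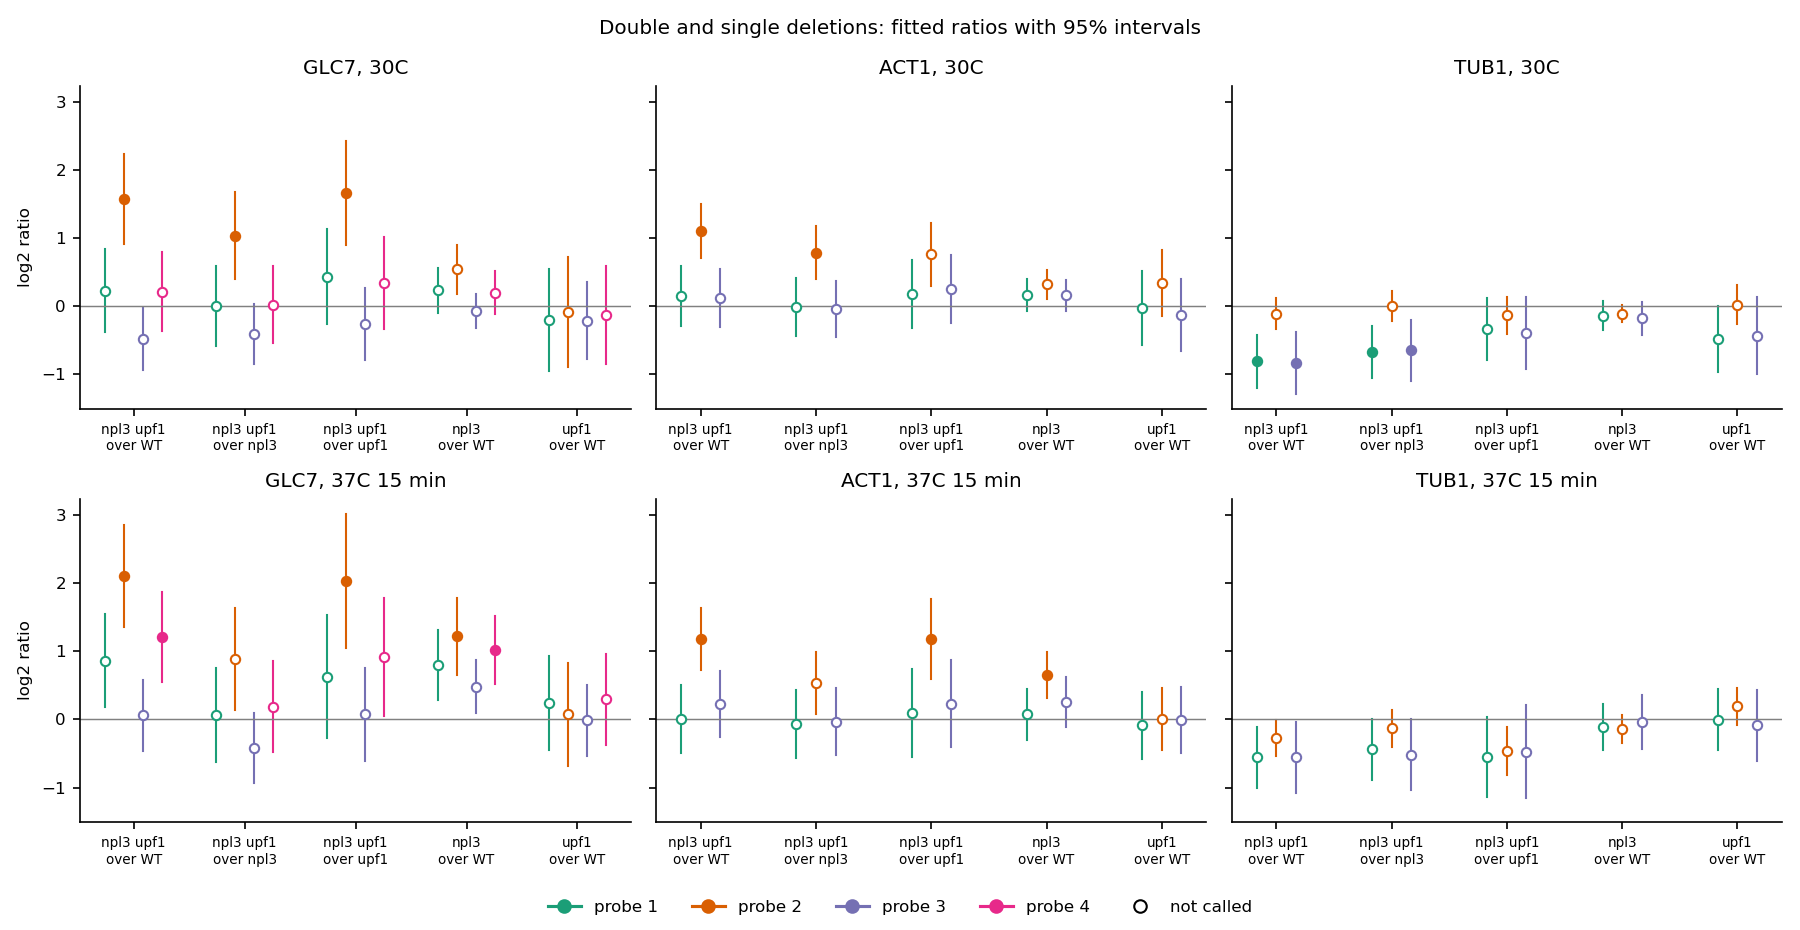
Fitted log2 ratios with 95% intervals for every printed probe of GLC7, ACT1 and TUB1 (colours), at 30 °C in the upper row and after 15 min at 37 °C in the lower row. Columns within a panel are npl3 upf1 over wild type (WT), over npl3 and over upf1, then npl3 and upf1 over wild type, and filled points are called. Over wild type at 30 °C GLC7 probe 2 is at 1.57 in npl3 upf1, 0.54 in npl3 and -0.09 in upf1, and TUB1 probe 1 at -0.81, -0.14 and -0.48.

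The difference between probe 2 and probe 3 of a gene was tested within pairs, over the 230 genes with 3 ordered probes. In npl3 after 30 min at 37 °C it was called for GLC7 and ARP2, both above 0, 2 of 8 genes, against 53.5% of the 230 genes called. GLC7 had 0.63, 1.21 and 2.29 as lowest, median and highest, all 6 above 0, and a fitted difference of 1.29 ± 0.20 (SE, adjusted p = 2.16e-05, limma). ARP2 had a fitted difference of 0.33 ± 0.13 (adjusted p = 0.0394), with 5 of 6 pairs above 0, and it lost the call without replicate 2 or 6. At 30 °C GLC7 alone was called, at 0.61 ± 0.18 (adjusted p = 0.0146), against 25.7% of the genes. The GLC7 difference was 0.83 without the pair numbered replicate 3. With the sign of that pair turned it was 0.84, and COF1 was called too, at -0.29. In npl3 after 15 min none of the 8 was called (1 at an unadjusted p under 0.05), beside 10.4%.

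In PFY1 it was probe 1 that stood apart. In npl3 after 30 min at 37 °C its probes 2 and 3 minus probe 1 gave -0.60 ± 0.16 (SE, adjusted p = 0.00346) and -0.73 ± 0.16 (adjusted p = 0.00499, limma), as differences in log2 ratio. After 15 min these differences were -0.95 (adjusted p = 0.0161) and -1.07 (adjusted p = 0.0142). Of the 230 genes, 51.3% were called for probe 2 minus probe 1 after 30 min and 15.7% after 15 min, and 12.6% and 0.435% for probe 3 minus probe 1. GLC7 was called in both after 30 min, at 0.73 and -0.56, and YSC84 for probe 3 minus probe 1, at 0.33. For probe 2 minus probe 1, PFY1 and GLC7 thus ran in opposite directions.

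In the double deletion at 30 °C the probe 2 minus probe 3 difference was called above 0 in ACT1 (0.98), PFY1 (0.56), TUB1 (0.72) and GLC7 (2.05), which is 4 of 8 genes beside 68.7% of the 230. Its adjusted p ran from 6.51e-06 in GLC7 to 0.025 in PFY1 (limma). Probe 2 minus probe 1 was called in ACT1, TUB1 and GLC7, at 0.95, 0.70 and 1.34, beside 57% of the genes. In the same strain after 15 min at 37 °C, ACT1 (0.95) and GLC7 (2.04) were called for probe 2 minus probe 3, beside 40.9%. The upf1 deletion alone at 30 °C had none of the 8 called (0 at an unadjusted p under 0.05), beside 6.96%. Against npl3 at 30 °C the double deletion differed for ACT1 (0.82), TUB1 (0.65) and GLC7 (1.45), beside 54.3% of the genes. After 15 min at 37 °C it differed for GLC7 (1.31, adjusted p = 0.0441), beside 4.35%. Against upf1 it differed for GLC7 at 30 °C (1.93, adjusted p = 0.00253) and after 15 min at 37 °C (1.96, adjusted p = 0.0291), beside 25.7% and 9.57% of the genes.

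**Figure D4:**
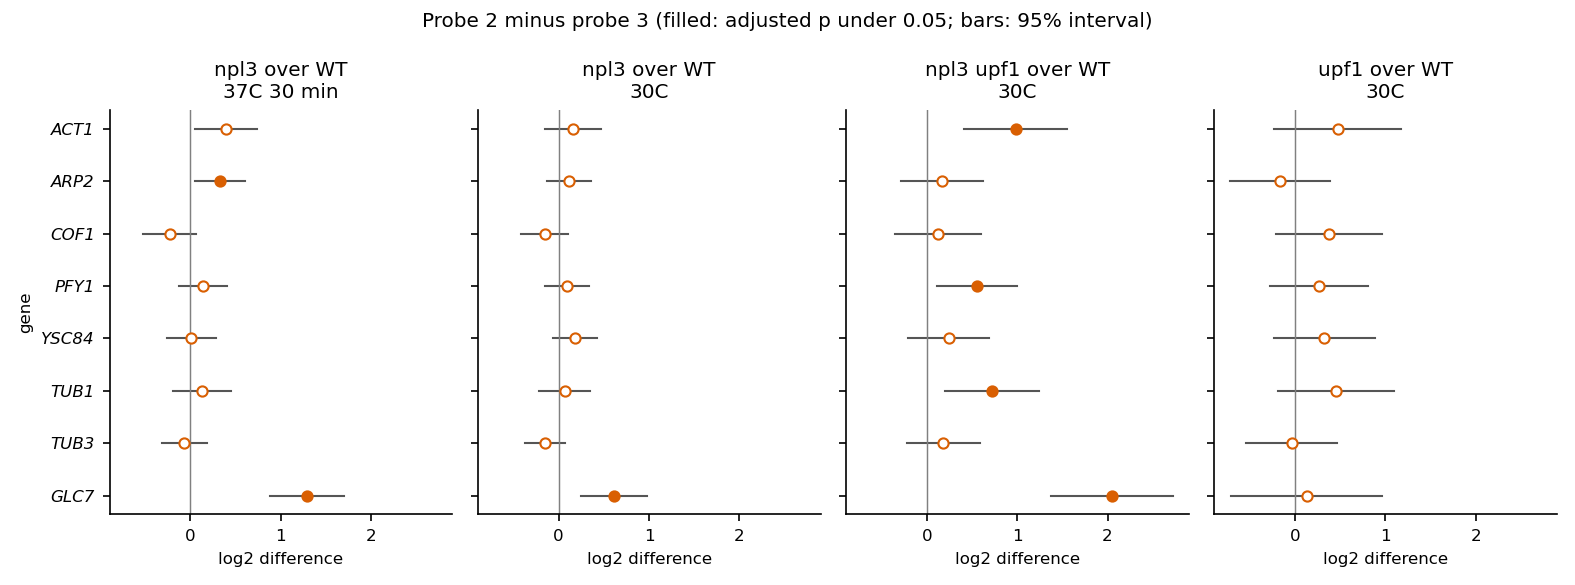
Probe 2 minus probe 3 of each of the 8 genes as a fitted log2 difference with its 95% interval, in npl3 after 30 min at 37 °C, npl3 at 30 °C, npl3 upf1 at 30 °C and upf1 at 30 °C, each over wild type and on 1 shared axis. GLC7 lies at 1.29, 0.61, 2.05 and 0.13 in these panels, and filled points are those called.

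Across all 37 extract pairs, some probes of a gene ran together and others did not. Pearson's r was 0.91 between TUB1 probes 1 and 3 and 0.20 between TUB1 probes 1 and 2. It was 0.91 between GLC7 probes 1 and 4, 0.80 between ACT1 probes 1 and 3, and 0.10 between GLC7 probes 2 and 3. For PFY1 and COF1 it lay between -0.22 and 0.08. These are descriptions only, since the pairs share strains, batches and arrays. Among probes of other genes, GLC7 probe 2 was most like RPS0A probe 2 (r = 0.89 over 37 pairs), and ACT1 probe 2 most like RPS9A probe 2 (r = 0.87), both genes of small ribosomal subunit proteins. TUB1 probes 1 and 3 were most like YRA1 probe 3 (r = 0.79 and 0.80), an mRNA export factor gene. GLC7 probe 1 was most like the probe of GET4 (r = 0.92) and PFY1 probe 1 most like RRT8 probe 3 (r = 0.78). The likest were ERD2 probe 3 for GLC7 probe 4 (r = 0.90), GCR1 probe 3 for COF1 probe 2 (r = 0.73) and RPS11B probe 3 for TUB1 probe 2 (r = 0.73).

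Few other genes of these pathways were on the array, and their lists are short. Of 48 further actin cytoskeleton genes 2 were measured (LSB3 and SAC6), and 1 of their 6 probes was called in npl3 after 30 min at 37 °C, a comparison with 26.4% of all probes called. This was SAC6 probe 2, the actin-bundling fimbrin, which rose by 0.33 ± 0.09 (SE, adjusted p = 0.00618, limma). The median of the 6 probes was -0.14, against -0.02 for all probes. Of 54 tubulin and microtubule genes 3 were measured, with 0 of 9 probes called and a median of -0.03. Of 33 genes for regulators or partners of Glc7, 11 were measured with 1 probe each, and 3 fell, beside 13.2% of all probes that fell. SNF1, the kinase of glucose derepression, was at -0.34 ± 0.08 (adjusted p = 0.00248), the phosphatase gene PPZ1 at -0.36 ± 0.09 (adjusted p = 0.0046) and PTI1, of the mRNA 3′-end machinery, at -0.27 ± 0.09 (adjusted p = 0.0235). No probe of this list rose, and its median was -0.01.

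The prp2-1 strain was set against prp5-1 and against prp8-1 on 1 array each, with prp2-1 in Cy5, so there was no test and no check of direction by a dye flip. PRP2 encodes the ATPase that readies the assembled spliceosome for the first step, PRP5 an ATPase of early assembly and PRP8 a core spliceosome protein. Most of the 25 probes were below 0, with 3 above 0 over prp5-1 and 6 over prp8-1. Their medians were -0.46 and -0.31, against -0.04 and -0.01 over all probes. At a change of at least 2-fold, 3 of the 25 were lower over prp5-1, beside 13.3% of all probes past this change in either direction. They were probe 1 of GLC7 (-1.85 ± 0.07, SD over 6 spots), of PFY1 (-1.40 ± 0.11) and of TUB3 (-1.12 ± 0.26). Over prp8-1 these probes were at -0.77, -0.38 and -0.01. In that comparison YSC84 probe 1 was at 1.25 ± 0.20, the only one of the 25 past 2-fold, beside 6.38% of all probes. YSC84 probe 2 was at 0.86 and probe 3 at -0.60.

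Probe 2 minus probe 3 was above 0 in 68.7% of the 230 genes over prp5-1 and in 70.4% over prp8-1, with medians of 0.37 in both. Of the 8 genes, YSC84 and TUB1 were above 0 in both comparisons, at 0.44 and 1.46 for YSC84 and 0.80 and 0.24 for TUB1. Over prp5-1 ARP2 (0.125), TUB3 (0.19) and GLC7 were above 0 as well, while over prp8-1 YSC84 and TUB1 were the only ones. GLC7, whose difference was the largest of the 8 in npl3 cells after 30 min at 37 °C, had 0.26 over prp5-1 and -0.58 over prp8-1. Over prp5-1 its probe 2 had an SD of 1.09 over the 6 spots, so that value is poorly determined.

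**Figure D5:**
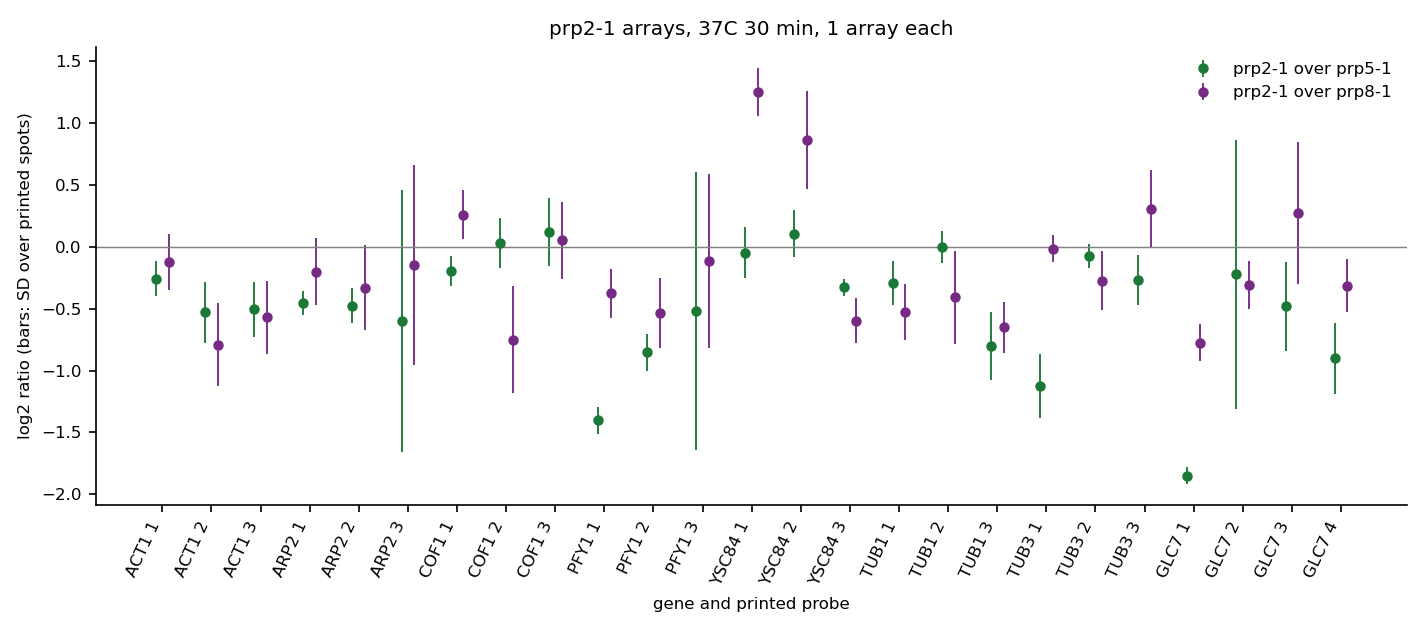
Log2 ratio of prp2-1 over prp5-1 and of prp2-1 over prp8-1 for each printed probe of the 8 genes after 30 min at 37 °C, 1 array per comparison, with bars for the SD over printed spots. The lowest value is GLC7 probe 1 over prp5-1 (-1.85) and the highest YSC84 probe 1 over prp8-1 (1.25).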

How the data were processed

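Relative RNA levels were measured in 75 2-colour arrays of total RNA, labelled through amino-allyl dUTP per the labels' protocols. The deposited values are ratios on a log2 scale, 1 per spot. The scale was taken from the values, and the authors' scanner settings, background correction and normalization, and the build behind the probes, are not given in the labels or files read here, so no coordinates or probe sequences are printed. The direction was read as the strain named first over the other, the same in both dye orientations, from the dye-flipped arrays and the probes of the deleted genes. For the prp2-1 arrays it rests on the same reading alone. Array medians lay between -0.03 and 0.033, so no centring was applied. Spots without a value made up 0.184% to 35.4% of an array (median 3.9%), and the signal behind a ratio is unknown, so the number of arrays limits the precision.

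Averaging the 6 spots of a probe, and then both dye orientations where an extract pair had them, left 37 pairs. Replicate 6 of npl3 after 30 min at 37 °C is a single array. All pairs were fitted in R 4.3.3 with limma 3.58.1 (17 coefficients, 20 residual degrees of freedom), so single pairs borrow the spread of the others. Probes with a value in at least 50% of pairs were tested, and a probe was called at a Benjamini-Hochberg adjusted p under 0.05 over 1536 probes, or over 230 genes for differences between probes. The fit was tested on simulated data with independent noise, with changes set only in npl3 after 30 min at 37 °C. Batch and dye effects were not simulated. The labels do not say whether pairs are separate cultures. A p-value thus measures the spread between these pairs alone, which may be technical. The genes, lists and tests were chosen with earlier results of these data known. Every probe of the 8 genes is described, and from the lists of related genes up to 3 rises and 3 falls in npl3 after 30 min at 37 °C are named. The most alike probe of another gene is given for each probe called in that comparison, by Pearson's r over the pairs. Centring, the filter, medians over spots, dye orientation, the pairs in the fit, batch, the pair numbered replicate 3, dye-discordant pairs and each pair in turn were varied.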

Additional observations from a re-analysis of the deposited data

Results flagged for a closer look

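In 50 groups of ratios (25 probes in each of the npl3 over wild type groups after 30 min at 37 °C and at 30 °C), 8 had 1 pair far from the others by Dixon's test. Chance flags about 5% of groups. Of these, 4 were the 30 °C pair numbered replicate 3, whose NPL3 ratio goes against its label. It had -0.68 at ACT1 probe 2 (the other 6 from 0.35 to 0.69), 0.58 at COF1 probe 2 (-0.58 to -0.29), 0.62 at TUB1 probe 1 (-0.40 to -0.06) and 0.18 at TUB1 probe 2 (-0.33 to -0.12). The other 4 were after 30 min at 37 °C. Replicate 2 had 2.76 at GLC7 probe 2 (the others from 0.72 to 1.31). Replicate 1 had -0.80 at TUB1 probe 1 (-0.31 to -0.06) and 0.76 at YSC84 probe 3 (-0.14 to 0.10). Replicate 6, which has no dye-flipped array, had -1.17 at ARP2 probe 3 (-0.10 to 0.18).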

How the results depend on the processing

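Pairs were not matched by replicate number, because the labels give the replicates no numbers and those used here follow the order of deposit. Batch was tried as a block instead. As a random block it gave 8 calls in npl3 after 30 min at 37 °C, beside 23.6% of all probes. In the other comparisons it gave the same number as without it. With only the pairs of the groups compared, 3 of the 25 probes were called in npl3 after 30 min at 37 °C in place of 9. The share of all probes called was then 10.2% in place of 26.4%. Shares of all probes called follow in brackets. At 30 °C the count was 0 as labelled (4.3%), 2 with arrays of npl3 in Cy3 alone (6.9%) and 2 with batch as a fixed block (6.32%). It was 3 without the pair numbered replicate 3 (16%) and 6 with its sign turned (21%). After 15 min at 37 °C (4 calls, 4.17%) it was 2 with Cy5 arrays alone (4.62%) and 7 with Cy3 arrays alone (16.7%). It was 1 with only the groups compared (2.28%) and 0 with batch as a fixed block (0%). Without the pairs whose dye-flipped arrays correlate below 0 it was 0 (0.26%). Over the 6 gbp2 and hrb1 comparisons (1 call) it was 4 with Cy3 arrays alone and 0 with batch as a fixed block. Over the 10 comparisons with upf1 (16 calls) it was 9 without the dye-discordant pairs. Shares of all probes are not given for the gbp2, hrb1 and upf1 sums, nor for the settings of npl3 minus gbp2 hrb1. For npl3 minus gbp2 hrb1 (0 calls) it was 1 without the pair numbered replicate 3 and 1 with its sign turned. Probe 2 minus probe 3 differences called among the 8 genes are given beside the share of the 230 genes. After 30 min at 37 °C (2, 53.5%) they were 1 with medians over spots (56.1%), 1 with only the groups compared (44.8%) and 1 without dye-discordant pairs (51.7%). At 30 °C (1, 25.7%) they were 3 with Cy5 arrays alone (19.6%), 2 with the sign turned (54.8%) and 0 with Cy3 arrays alone (28.3%). They were 0 with only the groups compared (0%) and 0 without dye-discordant pairs (0%). Leaving out 1 pair at a time gave 5 to 9 calls in npl3 after 30 min at 37 °C, 0 to 3 at 30 °C and 9 to 19 over upf1. For the differences between probes it gave 1 to 2 at 37 °C and 0 to 1 at 30 °C. It gave 0 throughout for the temperature difference and for npl3 minus gbp2 hrb1. Except without the pair numbered replicate 3, shares over the array are not given for these leave-outs, so their ranges cannot be set against it. The leave-outs after 15 min are given above with that comparison. Over gbp2 and hrb1 each leave-out left a single pair in a group, so those counts are not given. Of the single probes, 1 reversed, COF1 probe 2 after 30 min at 37 °C, at 0.062 with Cy3 arrays alone in place of -0.41. The cause of these shifts was not tested. The temperature difference (0) and the prp2-1 counts (4) did not move under the settings run. Not computed were the summed counts for gbp2 and hrb1 and for upf1 with only the groups compared. Nor was the summed gbp2 and hrb1 count without dye-discordant pairs, since all hrb1 pairs were among those. Leave-outs that remove the only pair of a comparison were not computed either.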
